A study of Mus musculus with 18 samples.

Results

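The genes of fatty acid uptake and oxidation are described here across 6 harvest days of a mouse stem cell culture on its way to heart muscle. The set was given as a list of 32 symbols, drawn up by known function with earlier results of these data in view, and the 32 symbols were found among the 23337 of the count table. They fall into 6 genes of uptake and carriers, 19 genes of mitochondrial oxidation and 7 nuclear regulators. Fatty acids are freed from circulating triglyceride by lipoprotein lipase, enter cells with the help of CD36, travel in the cytosol on fatty acid binding proteins and are activated to acyl-CoA. Carnitine palmitoyltransferases and a carrier move the acyl chain into the mitochondrion, where beta-oxidation shortens it in repeated cycles and passes electrons to the respiratory chain. The adult heart draws most of its energy from this route, and the immature heart relies more on glucose and lactate. The receptors of the PPAR and ERR families, with their coactivators of the PGC-1 family, are known to switch these genes on.

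The latest harvest, day 15 (D15), is set against day 5 (D5), and D6, D7, D8 and D10 lie in between. Each day had 3 libraries of poly(A) RNA, 18 in all, and since the labels name no separate cultures within a day, p-values measure the spread between these libraries, which may be technical. The labels give D8, D10 and D15 as immature cardiomyocytes and D5, D6 and D7 as cardiac progenitor cells. The cells of every group were the untreated TBX5-FTA line, of the A2Lox.cre strain (an embryonic stem cell background built for inserting transgenes), so no group differs in genotype or treatment, and the line stands for a single background. Total counts ran from 5257601 to 7122093 per library, and 13116 genes had enough counts to be tested.

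The labelled cell type was set against marker genes. The summed level of 12 cardiomyocyte markers was 5941 to 10435 CPM at D15, against 481 to 559 CPM at D5, CPM being counts scaled by library size. Markers of other cell types changed as well, with 9 of 9 fibroblast and 9 of 10 endothelial markers called higher at D15 than at D5, against 40.3% of genes. Of 6 smooth muscle markers 3 were called higher and 3 lower (sum 1751 to 1979 CPM at D15, against 2606 to 2994 CPM at D5), and the 6 primitive red cell markers were at 0 at D15. The sum of 9 fibroblast markers was 39817 to 48796 CPM at D15, against 442 to 480 CPM at D5, and that of 10 endothelial markers was 376 to 563 CPM, against 130 to 152 CPM. These are bulk libraries, in which more cells of a type and more RNA per cell cannot be told apart, and the part of these other cells in the results below was not tested.

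Promoter sequences are shown for the gene pair of the trifunctional protein, whose levels are compared below, and for Cpt1a, Acadvl, Acadm and Cd36, which are 4 of the 6 members with a receptor hexamer and were picked with their values known. A RefSeq table of GRCm38.p6, 250 bases before to 50 bases after each start, held promoters for 25 of the 32 members. It held none for Cpt1b, Ppargc1b, Decr1, Fabp4, Lpl, Acaa2 and Fabp5. Hadha and Hadhb are transcribed away from each other, and their RefSeq starts lie 273 bases apart. The first line gives the 85 bases at chr5:30155163-30155247 (plus strand) that lie before both genes, with each CG in capitals (9 in all, 69.4% G or C).
Hadha and Hadhb: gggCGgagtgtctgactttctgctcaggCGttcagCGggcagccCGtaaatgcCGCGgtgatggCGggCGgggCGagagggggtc
Cpt1a: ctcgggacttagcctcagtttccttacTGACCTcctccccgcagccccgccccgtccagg
Acadvl: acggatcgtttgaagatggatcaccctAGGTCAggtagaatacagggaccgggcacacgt
Acadm: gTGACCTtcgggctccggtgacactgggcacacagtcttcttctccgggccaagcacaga
Cd36: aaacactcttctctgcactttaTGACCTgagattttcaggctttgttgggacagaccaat
The other 4 lines are 60-base windows on the strand of the gene, at chr19:3323180-3323239 (plus strand), chr11:70015483-70015542, chr3:153944834-153944893 and chr5:17836087-17836146 (minus strand). Their capitals mark the hexamer AGGTCA, read on either strand, the core that nuclear receptors of these families bind. Its first base lies at -94 from the RefSeq start in Cpt1a, -87 in Acadvl, -249 in Acadm and -228 in Cd36. The windows of Cpt1a and Cd36 lie inside the spans that GENCODE M21 gives these genes (chr19:3322334-3385733 and chr5:17781690-17888801). Those spans begin upstream of the RefSeq starts used here. The hexamer stood in the promoters of 6 of 25 members (24.0%: Cd36, Cpt1a, Acadm, Acadvl, Echs1 and Pparg), a share near the 18.1% of the 27025 genes in the table, and no result below rests on it. The longer elements TCAAGGTCA (bound by ERR) and DR1 (AGGTCA, any base, AGGTCA, bound by PPAR with RXR), which both contain the hexamer, were in 0 of 25 members and in 0.466% and 0.0481% of genes, both strands searched. The element of the factor NRF1 (GCGCA directly followed by TGCGC) was in 2 members (Etfdh and Ppara, against 1.07% of genes), and TATAAA in 2 (Pparg and Esrrg, against 15.7% of genes). A match is a description of letters in this window only.

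Most members were higher at D15. Of the 31 members with enough counts to be tested (edgeR's quasi-likelihood test, Benjamini-Hochberg adjustment over the 13116 genes, called at an adjusted p under 0.05), 29 were higher at D15 than at D5 and 1 was lower, against 40.3% and 37.7% of genes called higher and lower. The libraries of the 2 days did not overlap for the same counts of members, 29 higher and 1 lower, against 41.2% and 38.8% of genes. The median log2 fold change was 1.97 over the tested members and 0.03 over the tested genes. By role it was 3.34 in uptake and carriers (6 of 6 higher), 1.38 in mitochondrial oxidation (17 of 19 higher, 1 lower) and 3.21 in the regulators (6 of 6 tested higher). Fabp4 and Ppara had at least 10 counts in all libraries of a day only at D15, and so passed the count filter through the day on which they were high. Pparg did not pass it. The F test across the 6 days called 31 of 31, against 88.9% of genes.

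**Figure D1:**
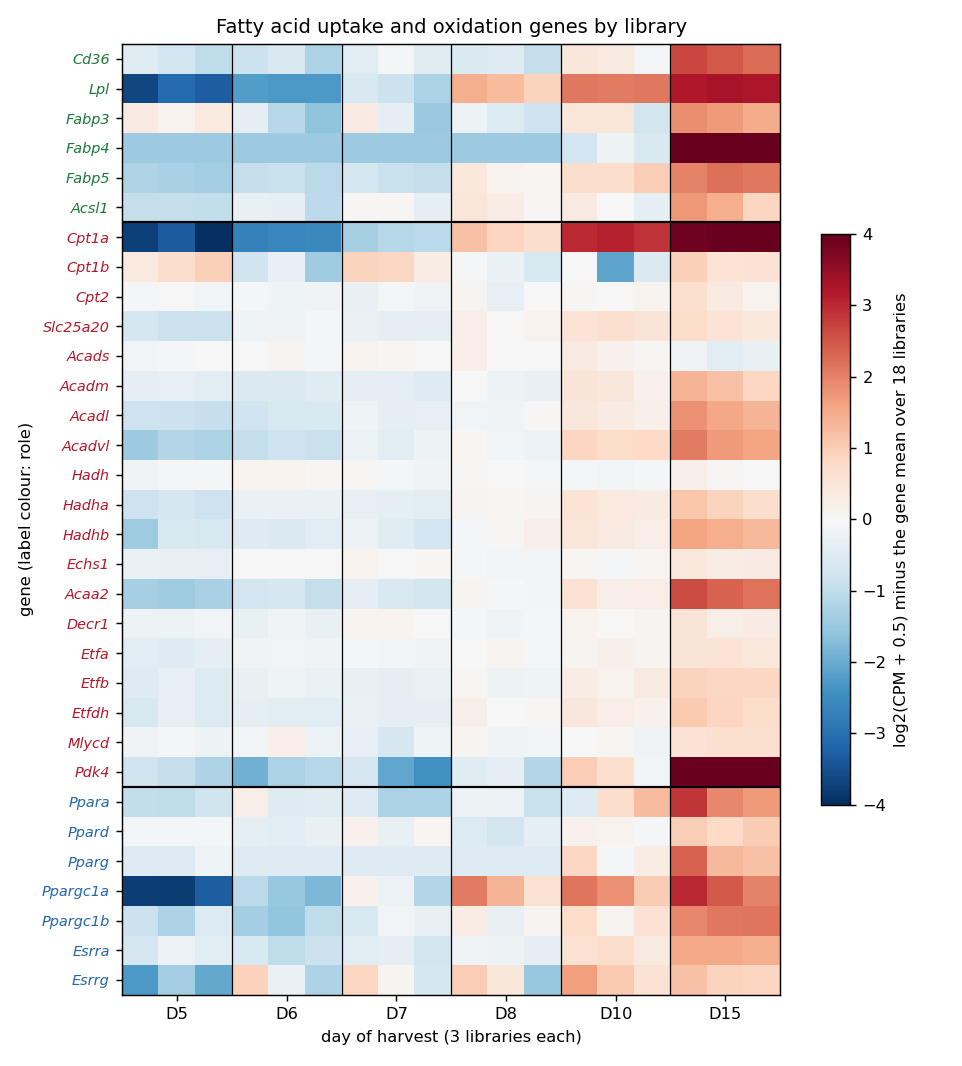
Level of the 32 members (rows, label colour by role) in the 18 libraries (columns, 3 per day from D5 to D15), as log2(CPM + 0.5) minus the mean of the gene over the libraries, with the colour scale ending at 4 in either direction. The D15 columns hold the highest mean level for 27 of the 32 members, and Acads, Cpt1b, Slc25a20, Hadh and Esrrg are the 5 others.

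**Figure D2:**
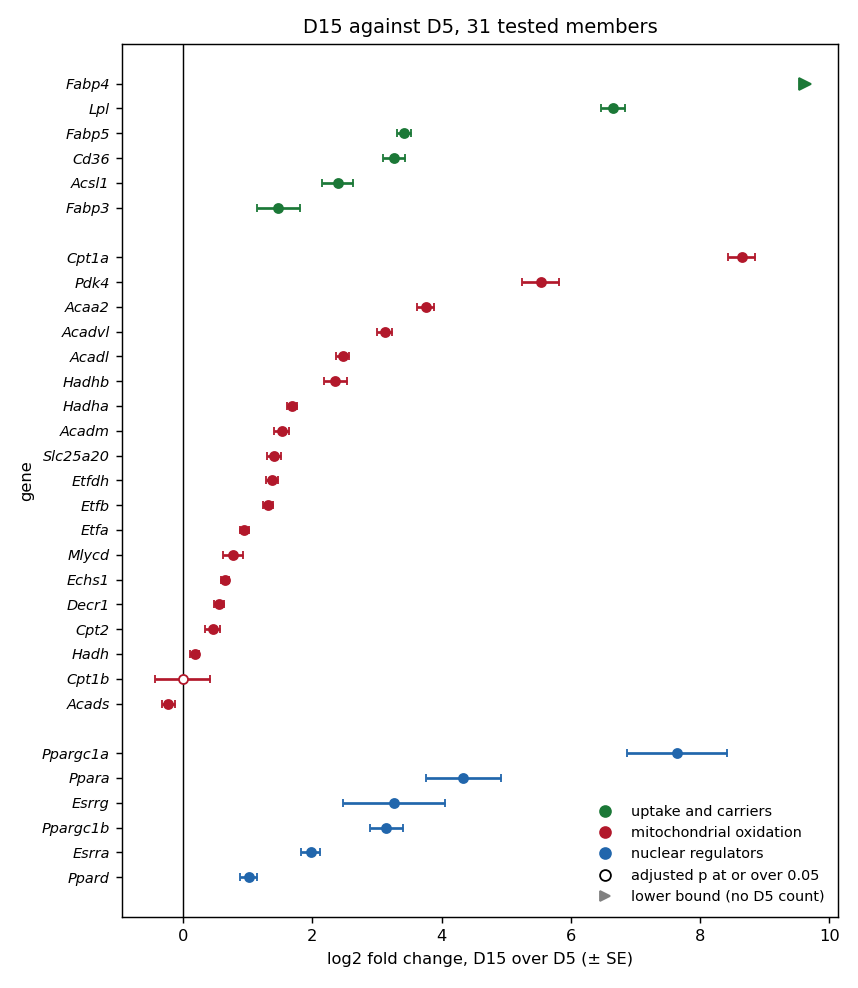
Log2 fold change of D15 over D5 with its SE for the 31 tested members, by role. Open circles did not pass the test, and the triangle of Fabp4 is a lower bound because it had no count at D5. Cpt1a has the largest fitted value in oxidation (8.64), and Acads and Cpt1b lie just below 0.

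Of the genes that bring fatty acids to the cell, Lpl (lipoprotein lipase, chr8:68880491-68907448 in GENCODE M21, plus strand) rose at every step. It had 7.86, 11.5 and 10.1 CPM at D5, 21.7, 20.8 and 20.4 at D6, 67.9, 56.3 and 42.5 at D7, 284, 249 and 193 at D8, 449, 435 and 451 at D10 and 955, 1029.6 and 972 at D15. The libraries of neighbouring days did not overlap at any step, and each of the 5 steps was called. D15 over D5 was 6.65 ± 0.18 (log2 fold change ± SE, edgeR adjusted p = 1.57e-14), and the largest step was D8 over D7 (2.12 ± 0.15).

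Cd36, the receptor and transporter for long-chain fatty acids, stayed within 11.9 to 27.5 CPM in the 12 libraries of D5 to D8. It had 39.5, 36.9 and 27.7 CPM at D10 and 189, 163 and 138 CPM at D15, against 20.4, 16.8 and 14.04 CPM at D5. The D15 libraries lay above those of every other day, with D15 over D5 at 3.26 ± 0.17 (edgeR adjusted p = 6.71e-13) and D15 over D10 at 2.22 ± 0.16 (adjusted p = 5.39e-10). Endothelial cells also make CD36 and FABP4. The sum of the 10 endothelial markers was 130 to 152 CPM at D5, 406 to 489 at D6, 402 to 552 at D7, 344 to 474 at D8, 281 to 319 at D10 and 376 to 563 at D15. Of its members only Tek averaged lower at D15 than at D10 (89.1 CPM, against 155 CPM). All the others averaged higher, among them Cdh5 (102 CPM at D15, against 21.5 CPM at D10), Pecam1 (73.2 CPM, against 12.5 CPM) and Kdr (85.2 CPM, against 71.8 CPM).

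Fabp4, the binding protein of adipocytes, macrophages and capillary endothelium, had no count in the 12 libraries of D5 to D8. It had 8 counts over the D10 libraries and 1953 over the D15 libraries, where it reached 143, 106 and 87.4 CPM. With the D5 libraries together set at 3 counts, it was at least 792-fold higher at D15 than at D5 (edgeR adjusted p = 4.28e-13), and the ratio of D15 to D10 in CPM was 243. Fabp4 passed the count filter only through D15, so this p-value is no separate support for the rise. Of 8 adipocyte markers, 7 (among them Adipoq and Plin1) were at 0 at D15 and Cebpa had 44 counts. The sum of 8 macrophage markers was 19.6 to 21.6 CPM at D15, against 3.68 to 4.61 CPM at D5. Of these, Ptprc, Adgre1, Fcgr1 and Itgam were at 0 at D15, while Csf1r had 274 counts at D15, against 1 at D5, Cd68 62, against 73, Lyz2 24, against 5, and Aif1 3, against 0.

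Fabp5, the epidermal type of binding protein, had 212, 250.4 and 235 CPM at D15, against 23.1, 21.5 and 20.3 CPM at D5. D15 over D5 was 3.42 ± 0.11 (edgeR adjusted p = 6.07e-22), with steps called at each interval but D7 over D6. The call of D6 over D5 ended with limma-voom (adjusted p = 0.0812) and without either of the D5 libraries of 6940609 and 7122093 counts or the D6 libraries of 6390507 and 6406717 counts (adjusted p from 0.0706 to 0.105). Fabp3, the heart type, had 15.5, 13.8 and 11.7 CPM at D15, against 5.09, 4.33 and 5.32 CPM at D5. It was lower at D6, with 2.91, 1.53 and 0.951 CPM (adjusted p = 0.01 against D5, or 0.0589 without the D6 library of 6208403 counts), before the D15 level (1.47 ± 0.33 for D15 over D5, adjusted p = 0.000269). Per kilobase of transcript, Fabp5 averaged 235 and Fabp3 16.6 CPM at D15, so the heart-type protein's transcript was the lower of the pair at the latest day. Both are uncertain, since 78.9% of the 50-base stretches of Fabp5 and 62.7% of those of Fabp3 were unique to the gene, the rest being shared with related sequences or, for Fabp3, also with Zcchc17. Acsl1, which activates long-chain fatty acids with CoA, had 83.1, 68.2 and 45.6 CPM at D15, against 12.5, 12.6 and 12.3 CPM at D5 (2.39 ± 0.24, adjusted p = 1.27e-07).

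The isoforms of the outer-membrane gate, carnitine palmitoyltransferase 1, differed widely. Cpt1a, the liver type (chr19:3322334-3385733, plus strand), had 0.728, 1.12 and 0 CPM at D5, 1.99, 2.14 and 2.22 at D6, 5.96, 6.94 and 7.29 at D7, 36.6, 28.9 and 26.04 at D8, 127, 138 and 121 at D10 and 243, 253 and 258 at D15. No neighbouring days overlapped, and each step was called. D15 over D5 was 8.64 ± 0.21 (edgeR adjusted p = 1.11e-22), from at most 8 counts per library at D5.

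Cpt1b, the isoform of adult heart and skeletal muscle, had 3.71, 2.66 and 2.72 CPM at D15, against 2.33, 3.08 and 3.68 CPM at D5. Its ranges overlapped and its difference did not pass the test (-0.01 ± 0.43, edgeR adjusted p = 0.990), and the sign of that value turned under 4 alternative settings. At D6 it was lower than at D5, with 0.765, 1.23 and 0.317 CPM (adjusted p = 0.00446). It had 3.57, 3.39 and 2.17 CPM at D7, higher than at D6 (1.95 ± 0.54, adjusted p = 0.00529). At D10 it had 1.69, 0 and 0.967 CPM, and D15 lay above D10 (1.71 ± 0.54, adjusted p = 0.00820, or 0.0546 without the D10 library of 5805681 counts). The log2 ratio of Cpt1b to Cpt1a counts (0.5 added to each) was -6.35 ± 0.30 at D15 and 2.92 ± 2.48 at D5 (SD, n = 3 each). The D5 libraries had 1.58, 1.40 and 5.78, and the last had no Cpt1a count, so its value depends on the added 0.5. Only 6.99% of the 50-base stretches of Cpt1b were unique, since it shares exons with the predicted gene Gm44502 on the same strand, so its counts may miss reads that the counting could not assign. Its neighbour Chkb had 0 to 3 counts in each of the 18 libraries.

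The inner-membrane steps moved less. Slc25a20, the carnitine-acylcarnitine carrier, had 55.4, 48.03 and 44.3 CPM at D15, against 20.1, 17.9 and 17.9 CPM at D5 (1.40 ± 0.11, edgeR adjusted p = 1.3e-12). At D10 it had 48.7, 51.97 and 47.2 CPM, and D15 over D10 did not pass the test (-0.0024 ± 0.10, adjusted p = 0.988). Cpt2, which returns the acyl chain to CoA, had 55.2, 45.7 and 39.2 CPM at D15, against 34.1, 34.8 and 32.9 CPM at D5 (0.46 ± 0.12, adjusted p = 0.000756). Mlycd, which breaks down the CPT1 inhibitor malonyl-CoA, had 22.2, 23.2 and 23.2 CPM at D15, against 13.4, 13.98 and 12.8 CPM at D5 (0.77 ± 0.15, adjusted p = 4.49e-05).

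The acyl-CoA dehydrogenases open each cycle and differ in the chain length they take. Their log2 fold changes of D15 over D5 ranked by that length. Acadvl, for very long chains, had 209.9, 160.4 and 149 CPM at D15, against 17.9, 21.5 and 20.04 CPM at D5 (3.12 ± 0.12, edgeR adjusted p = 9.74e-20). Acadl, for long chains, had 254, 207 and 181 CPM at D15, against 39.7, 38.6 and 37.2 CPM at D5 (2.47 ± 0.10). Acadm, for medium chains, had 136, 119.6 and 94.3 CPM at D15, against 40.9, 41.8 and 38.7 CPM at D5 (1.53 ± 0.11). For these 3 genes each D15 library lay above each D5 library. The ranking did not hold for D15 over D10, with Acadl at 1.25 ± 0.10, Acadvl at 1.00 ± 0.10 and Acadm at 0.76 ± 0.11.

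Acads, for short chains, was the member called lower, with 53.8, 44.7 and 48.97 CPM at D15, against 56.02, 56.9 and 59.7 CPM at D5. The ranges did not overlap, but the difference was small (-0.23 ± 0.10, edgeR adjusted p = 0.0366) and the call ended under 3 alternative settings. It also ended without either of the D15 libraries of 6121454 and 6831683 counts or the D5 libraries of 6940609 and 7122093 counts (adjusted p from 0.0549 to 0.175). Against D10, with 77.5, 66.99 and 61.5 CPM, the D15 value was lower by a larger step (-0.49 ± 0.10, adjusted p = 0.000142).

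Ratios within libraries come from the same counts, so they restate the order of D15 over D5 and are no separate support for it. The log2 ratio of Acadvl to Acadl counts was -0.37 to -0.27 at D15 and -1.15 to -0.84 at D5. That of Acadl to Acadm was 0.79 to 0.94 at D15 and -0.12 to -0.04 at D5, and that of Acadm to Acads was 0.94 to 1.42 at D15 and -0.62 to -0.44 at D5. The days did not overlap in any of these 3 ratios, and with 3 libraries a day they are given as descriptions. Acadvl shares exons with Dvl2 on the opposite strand, and 76.0% of its stretches were unique. Dvl2 itself averaged 51.9 ± 4.47 CPM at D15 and 112 ± 3.91 CPM at D5 (SD, n = 3 each).

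**Figure D3:**
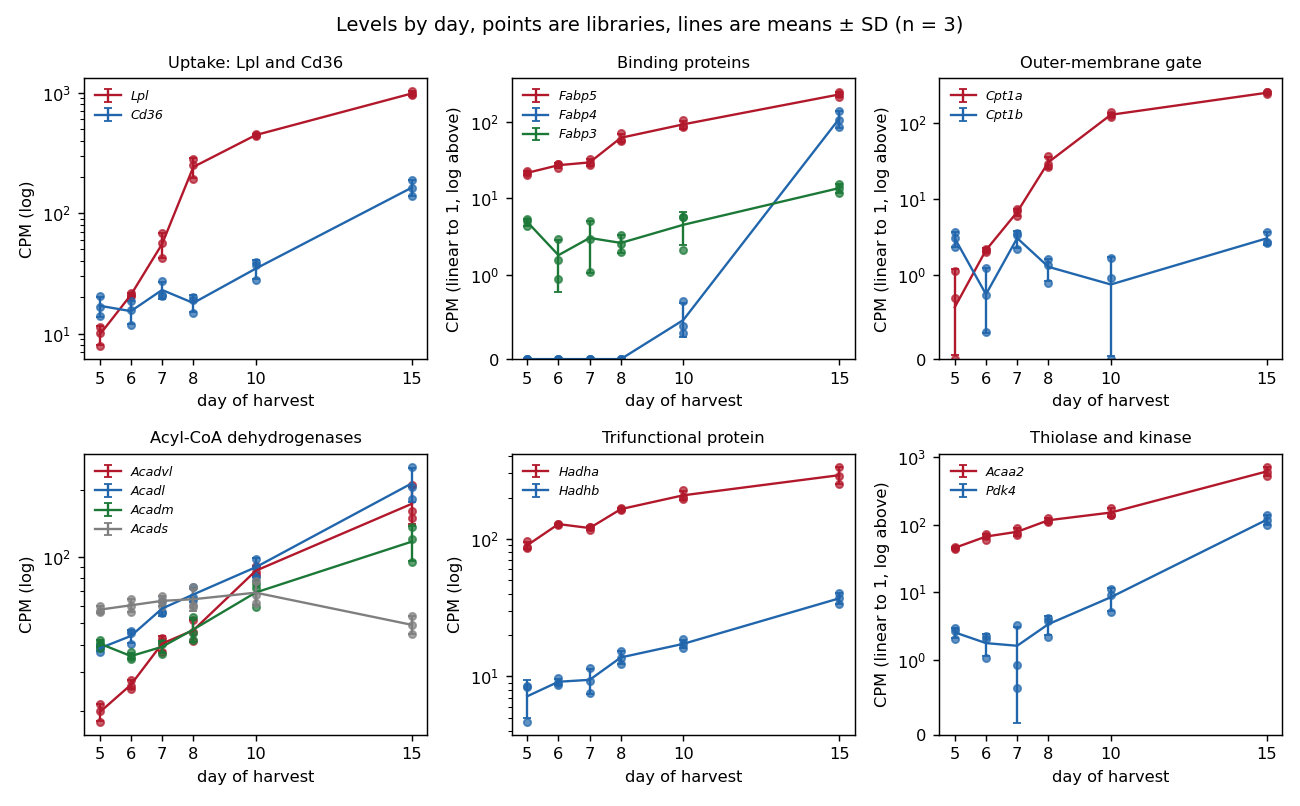
CPM by day of harvest for 15 members, with points for libraries and lines for means ± SD (n = 3); the vertical axis is a log scale, linear under 1 CPM where a gene came near 0. Lpl and Cpt1a climb at every step, Fabp4 and Pdk4 mostly between D10 and D15, and Cpt1b and Acads are not called higher at D15 than at D5.

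The next steps are run by the membrane-bound trifunctional protein for long chains and by soluble enzymes for shorter ones. Hadha, the protein's alpha subunit, had 334, 286 and 252 CPM at D15, against 87.7, 95.9 and 86.2 CPM at D5 (1.69 ± 0.08, edgeR adjusted p = 1.11e-17). Hadhb, the beta subunit, had 40.4, 37.04 and 33.4 CPM at D15, against 4.66, 8.53 and 8.32 CPM at D5 (2.36 ± 0.18, adjusted p = 5.52e-13). The interval printed above lies between the starts of Hadha and Hadhb. Both subunits were higher, and the log2 ratio of Hadhb to Hadha counts was -3.04 to -2.91 at D15, against -4.21 to -3.36 at D5. Only 37.6% of the stretches of Hadhb were unique, since 2 predicted genes, Gm13910 and Gm9108, share them, so its level relative to Hadha is uncertain.

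The soluble enzymes Hadh and Echs1, for shorter chains, were the highest members per kilobase at D5. Hadh, the short-chain hydroxyacyl-CoA dehydrogenase, had 211, 186 and 177 CPM at D15, against 164, 171 and 172 CPM at D5. The call (0.18 ± 0.07, edgeR adjusted p = 0.0149) ended without 1 library of either day (the D15 library of 6129209 counts, adjusted p = 0.156, or the D5 library of 6689537 counts, adjusted p = 0.0586). Echs1, the short-chain enoyl-CoA hydratase, had 176, 163 and 166 CPM at D15, against 111, 107 and 105 CPM at D5 (0.65 ± 0.06). Decr1, the dienoyl-CoA reductase for unsaturated chains, had 112, 92.2 and 98.9 CPM at D15, against 67.2, 67.1 and 71.6 CPM at D5 (0.55 ± 0.08). Acaa2, the thiolase that closes the cycle, had 712, 599.9 and 523 CPM at D15, against 45.5, 43.3 and 46.8 CPM at D5. Its log2 fold change was above those of the other cycle enzymes described here (3.76 ± 0.13, adjusted p = 2.28e-14), and most of it fell between D10 and D15 (2.02 ± 0.12).

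Etfa and Etfb encode the electron transfer flavoprotein, which takes the electrons of the dehydrogenases. Their transcripts and that of Etfdh were higher at D15 than at D5. Etfa had 107, 109 and 101 CPM at D15, against 54.9, 52.1 and 56.9 CPM at D5 (0.95 ± 0.07, edgeR adjusted p = 1.33e-12). Etfb had 138, 133 and 132 CPM at D15, against 51.7, 59.4 and 50.99 CPM at D5 (1.31 ± 0.08, with 32.7% of its stretches unique because of Gm45233). Etfdh, which hands the electrons to ubiquinone, had 149, 132 and 121 CPM at D15, against 46.4, 57.7 and 49.4 CPM at D5 (1.38 ± 0.09). In each of the 3 genes the D15 libraries lay above the D5 libraries. Exons of Etfdh, and of Acsl1, Hadha, Echs1 and Esrra, overlap those of a gene on the opposite strand, so their counts may hold its reads.

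Pdk4, the kinase that shuts pyruvate out of oxidation, changed late. It had 2.91, 2.66 and 2.05 CPM at D5, 1.07, 1.99 and 2.22 at D6, 3.28, 0.926 and 0.620 at D7, 3.78, 4.15 and 2.15 at D8, 11.2, 8.98 and 5.03 at D10 and 137, 117 and 99.5 at D15. The libraries of D5 to D8 all stayed under 5 CPM, and D15 lay above every earlier library. D15 over D5 was 5.53 ± 0.29 (edgeR adjusted p = 3.08e-12), of which D15 over D10 was 3.78 ± 0.25 (adjusted p = 4.7e-10).

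Among the tested regulators, the coactivator PGC-1alpha had the largest difference between D15 and D5. Ppargc1a had 0.146, 0.140 and 0.409 CPM at D5 (5 counts in all), 3.67, 2.60 and 2.06 at D6, 9.53, 6.94 and 3.41 at D7, 37.2, 22.2 and 12.9 at D8, 38.4, 30.9 and 17.4 at D10 and 70.8, 47.5 and 34.2 at D15. D8, D10 and D15 overlapped one another, while D5, D6 and D7 lay below them. D15 over D5 was 7.64 ± 0.78 (edgeR adjusted p = 6.43e-07), and of its steps only D8 over D7 was called (1.87 ± 0.47, adjusted p = 0.0113). That call ended when only those 2 days were fitted (adjusted p = 0.0735) and without the D8 library of 6769054 counts (adjusted p = 0.0586). Its relative Ppargc1b had 18.9, 21.6 and 22.1 CPM at D15, against 2.33, 1.68 and 3 CPM at D5 (3.15 ± 0.25, adjusted p = 2.58e-12). The log2 ratio of Ppargc1b to Ppargc1a counts was -1.90 to -0.63 at D15 and 2.68 to 3.46 at D5.

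The estrogen-related receptors differed in timing. Esrra had 43.8, 43.95 and 42.1 CPM at D15, against 9.17, 12.7 and 11.04 CPM at D5 (1.97 ± 0.14, edgeR adjusted p = 3.67e-13), with its called steps at D10 over D8 and D15 over D10. Esrrg had 0.728, 1.82 and 0.954 CPM at D5, 11.01, 4.59 and 2.06 at D6, 10.3, 6.02 and 3.26 at D7, 11.5, 7.80 and 1.62 at D8, 18.4, 11.9 and 8.51 at D10 and 13.1, 10.8 and 10.4 at D15. Its libraries of D6 to D8 spread widely and overlapped, and D15 over D5 was 3.26 ± 0.79 (adjusted p = 0.00176). The call of D6 over D5 (adjusted p = 0.0490) ended with limma-voom, with no count filter and without the libraries highest in cardiomyocyte markers (log2 fold change 1.26, adjusted p = 0.242). It also ended without any 1 of 12 of the 18 libraries (adjusted p from 0.0533 to 0.236).

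Of the PPAR receptors, which bind fatty acids, PPARdelta was present throughout and the others were scarce. Ppard had 43.1, 37.8 and 43.4 CPM at D15, against 20.2, 20.8 and 20.3 CPM at D5 (1.02 ± 0.13, edgeR adjusted p = 2.88e-08), with D8 lower than D7 (-0.56 ± 0.14, adjusted p = 0.00384). That step did not pass without the libraries highest in cardiomyocyte markers (adjusted p = 0.0942). Ppara, the form of liver and heart, had 10.9, 5.49 and 4.64 CPM at D15, against 0.291, 0.280 and 0.409 CPM at D5 (4.34 ± 0.58, adjusted p = 5.67e-08). Since Ppara passed the count filter through D15, that p-value is no separate support for the rise. Per kilobase, Ppard averaged 11.1 and Ppara 2.06 CPM at D15. Pparg, the form of fat cells, was not tested, with 32 counts over the D15 libraries and 1 over the D5 libraries (ratio 38.9, 95% counting interval 6.50 to 1585).

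**Figure D4:**
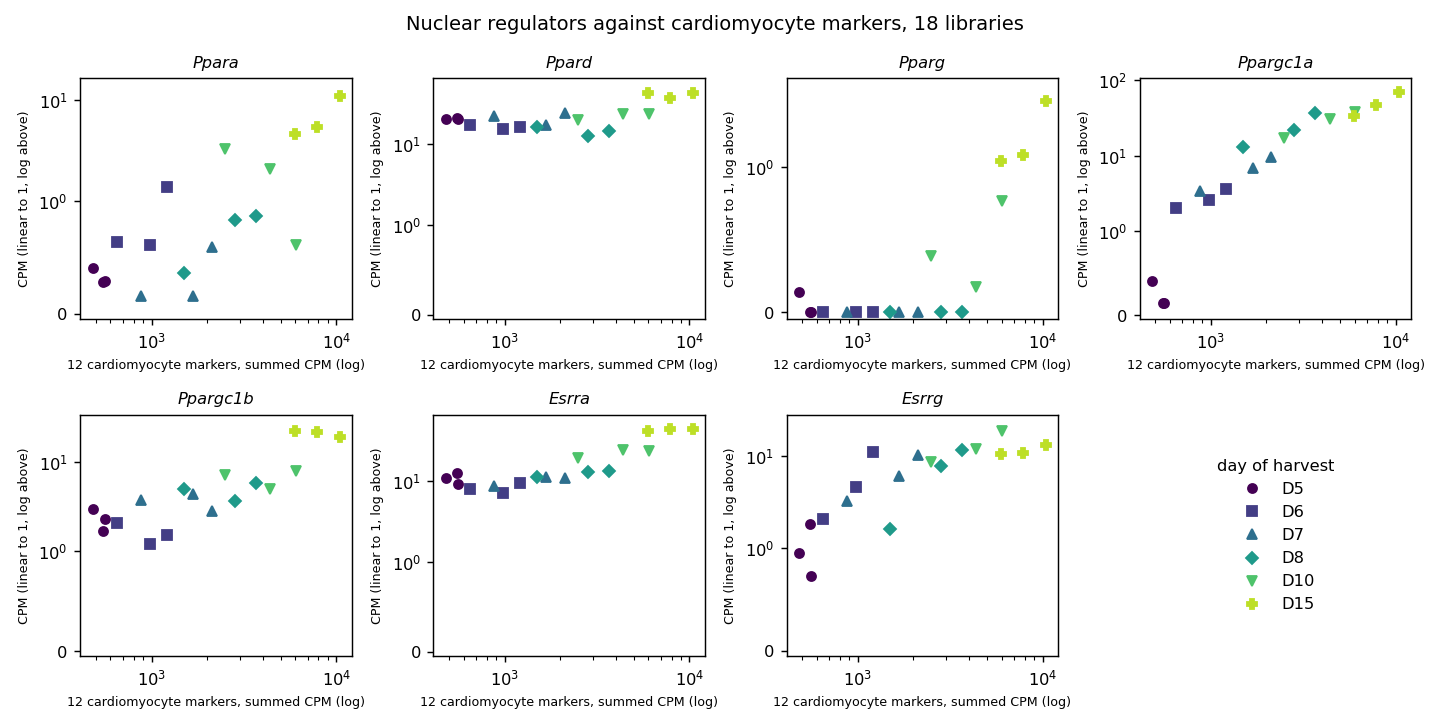
CPM of the 7 nuclear regulators (vertical, log above 1 CPM) against the summed CPM of 12 cardiomyocyte markers (horizontal, log) in the 18 libraries, with symbols for days. Within D6, D7, D8, D10 and D15, Ppargc1a is highest in the library with the highest marker sum, while Ppard and Pparg are not ordered this way on most days.

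Libraries of 1 day differed in their cardiomyocyte markers, and many members moved with them. The highest marker sum of a day was 1.16 times the lowest at D5, 1.87 at D6, 2.42 at D7, 2.45 at D8, 2.43 at D10 and 1.76 at D15. On each of the 6 days the sum was highest in the count column with the lowest running number and lowest in the one with the highest. The library with the highest sum was also the highest for the member on at least 4 of the 6 days for 16 of 31 tested members (51.6%), and for 13.8% of tested genes. Ppargc1a, Esrrg, Acsl1, Hadh and Etfdh did so on 5 days. Cd36 and Acsl1 were lowest in the library of the lowest sum on all 6 days. On D8, Ppargc1a had 37.2, 22.2 and 12.9 CPM in libraries whose marker sums were 3672, 2817 and 1499 CPM. The part of cardiomyocyte content in the results above was not tested. Without the library of each day with the highest sum, 28 members were called higher and 1 lower for D15 over D5. The share of all genes called was not computed for this fit, so these counts have no background to be read against. The libraries kept had marker sums of 7853 and 5941 CPM at D15, against 550 and 481 CPM at D5. The gap in markers between the days thus remained, and this fit is no test of cardiomyocyte content.

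The rises came mostly late. Of the 29 members called higher at D15 than at D5, 21 (72.4%) had their largest step between D10 and D15, an interval of 5 days, against 34.2% of the genes called higher. The first step, D6 over D5, was the largest for 5 (Slc25a20, Hadh, Hadha, Ppargc1a and Esrrg), D7 over D6 for Decr1 and D8 over D7 for Lpl and Cpt1a. Counted by step, D6 over D5 had 12 members called higher and 2 lower (Fabp3 and Cpt1b), against 18.2% and 16.4% of genes. D7 over D6 had 9 higher and 0 lower (15.1% and 15.3% of genes), and D8 over D7 had 9 higher and 1 lower (12.6% and 11.6%). D10 over D8 had 15 higher and 0 lower (17.3% and 13.9%), and D15 over D10 had 27 higher and 1 lower, Acads (26.4% and 24.4%). Between D15 and D10 the libraries did not overlap for 27 members higher and 1 lower, against 29.2% and 27.4% of genes. Without the D6 library of 6406717 counts, 7 members were called higher at D6, a fit for which the share of all genes called was not computed.

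Between the labelled stages, with D8, D10 and D15 averaged against D5, D6 and D7, 27 of 31 members were higher and 0 lower, against 39.3% and 37.8% of genes. The median log2 fold change was 1.12 over the tested members and 0.01 over the tested genes. Cpt1b, Acads, Hadh and Fabp4 were not called. Fabp4 had no count from D5 to D8, and its fitted value of 5.69 (edgeR adjusted p = 1.00) depends on the prior count and is no bound. For 12 members the 9 later libraries all lay above the 9 earlier ones and for 0 below them, against 8.67% and 8.23% of genes.

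The 32 members together took 0.420% of counts at D15, against 0.101% at D5 (means of 3 libraries). On D6 it was 0.117%, on D7 0.129%, on D8 0.167% and on D10 0.226%. Uptake and carriers took 0.145% of counts at D15, against 0.00678% at D5, and mitochondrial oxidation 0.259%, against 0.0901%. Levels between genes are compared per kilobase of transcript. At D15 Acaa2 (403 ± 62.5 CPM per kilobase), Lpl (240 ± 9.47) and Fabp5 (235 ± 19.6, SD, n = 3 each) stood highest, with Lpl and Fabp5 within each other's SD. At D5 the order was Hadh (94.5 ± 2.31), Echs1 (69.0 ± 1.94) and Etfb (60.5 ± 5.24), and Lpl stood at 2.38 ± 0.44. At D15 the lowest were Pparg (0.869 ± 0.543) and Cpt1b (1.05 ± 0.203), which overlapped. The places of Cpt1b (6.99% of its 50-base stretches unique), Etfb (32.7%) and Fabp5 (78.9%) are uncertain, since their counts may miss reads.

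Related lists of the same metabolism were counted in the D15 over D5 fit, each beside the 40.3% of genes called higher and 37.7% called lower. Each gene named from them was called (edgeR adjusted p at most 6.37e-09). Ketone body metabolism had 5 of 5 genes higher (median log2 fold change 3.10), among them Acat1, the mitochondrial acetoacetyl-CoA thiolase, with 269 ± 7.65 CPM at D15, against 30.3 ± 3.39 CPM at D5. Triglyceride storage and lipolysis had 12 of 15 tested genes higher and 0 lower (1.67), with Mgll, which frees fatty acids from monoglyceride, at 109 ± 1.78 CPM at D15, against 2.24 ± 0.684 CPM at D5. Peroxisomal oxidation had 11 of 13 higher and 0 lower (0.90), led by Abcd2 and Ech1. Auxiliary mitochondrial oxidation had 8 of 10 higher and 1 lower (1.00), led by Ucp2 and Acot13.

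Fatty acid synthesis had more genes lower than higher. Of its 13 tested genes, 2 were higher and 8 lower (median -0.30). Elovl6, which lengthens palmitate, had 53.7 ± 3.23 CPM at D15, against 236 ± 11.5 CPM at D5, and Scd1, which makes monounsaturated chains, 86.2 ± 6.65 CPM, against 278 ± 13.9 CPM. Acacb, whose malonyl-CoA inhibits CPT1 at the mitochondrion, was higher at D15 (54.8 ± 15.1 CPM) than at D5 (3.65 ± 0.391 CPM). Its list of other carnitine and malonyl-CoA genes had 3 of 5 tested genes higher and 0 lower (2.31).

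Pyruvate dehydrogenase control had 8 of 11 genes higher and 1 lower (0.95). Pdk1, another kinase that blocks pyruvate dehydrogenase, had 275 ± 61.9 CPM at D15, against 11.1 ± 2.61 CPM at D5, and Pdk2 had 61.5 ± 14.8 CPM, against 4.25 ± 0.803 CPM. Other fatty acid transport and activation had 5 of 10 tested genes higher and 2 lower (0.94), with Slc27a6 up (2.72 ± 0.32) and Slc27a3 down (-2.53 ± 0.17). Partners of the regulators had 6 of 13 higher and 5 lower (-0.09), with Nrip1, a corepressor, and Ncoa1, a coactivator, both higher. Of 8 other PPAR target genes 4 could be tested, and the 4 were higher (3.77), with Angptl4, which inhibits lipoprotein lipase, at 89.7 ± 6.17 CPM at D15, against 1.88 ± 0.418 CPM at D5.

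**Figure D5:**
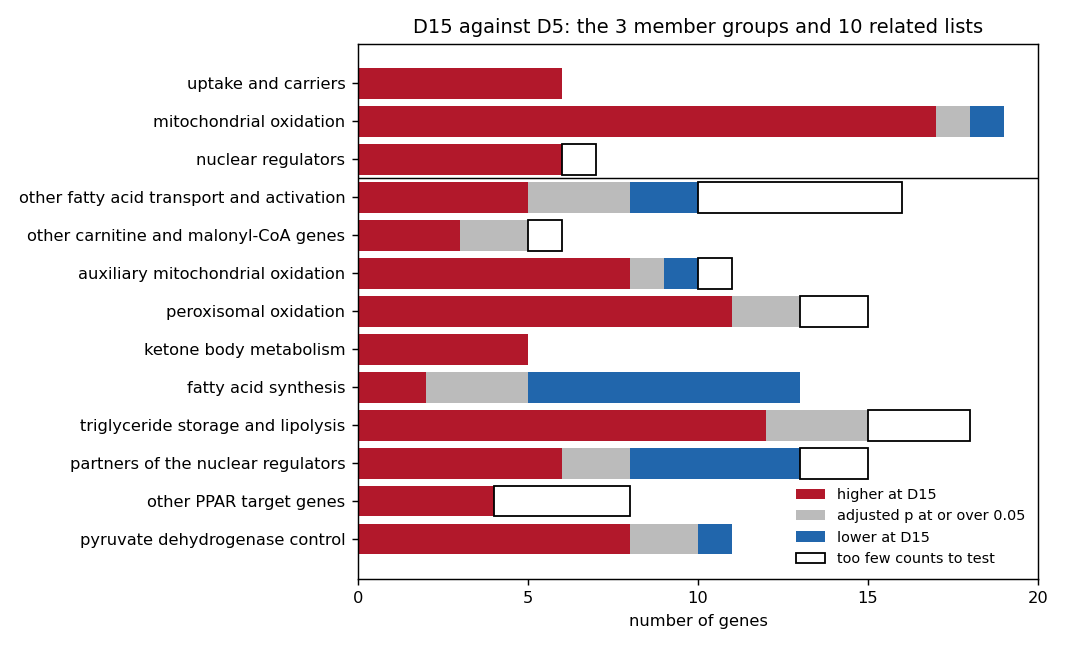
Number of genes higher, not passing the test, lower and with too few counts for D15 against D5, for the 3 member groups (above the line) and 10 related lists. Ketone body metabolism has 5 of 5 higher, whereas fatty acid synthesis has 8 of 13 lower.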

How the data were processed

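The authors deposited raw gene counts per library, the unit used here. Per the labels' protocols, TruSeq RNA v2 libraries were read as single-end 50 base reads, and per the submitters' processing notes STAR and mm10 were used. The counting tool, annotation and strand setting are not given in the sources used here. Of 21 columns, 18 were matched to a day by name and 3 were not used.

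The test was the quasi-likelihood F test of edgeR 4.0.16 (R 4.3.3). After filterByExpr (minimum count 10), 13116 genes remained. With TMM scaling, a mean per day was fitted over 18 libraries with robust quasi-likelihood dispersions (12 residual degrees of freedom, biological coefficient of variation 8.27%). Benjamini-Hochberg adjustment ran over these genes, and an adjusted p under 0.05 was called. The steps were tested on simulated data. CPM values are counts scaled by the TMM-adjusted total. Counting intervals and floors cover counting error only. No 2 libraries of a day were copies (chi-square over degrees of freedom at least 2.206).

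Members and lists were chosen with earlier results of these data known. The 32 members are described throughout, and of each related list up to 2 genes with the largest absolute change among called genes (mean log2 CPM at least 2) are named. Other lists of markers (epicardium 2276 to 2341 CPM at D15, against 354 to 386 at D5; smooth muscle 1751 to 1979, against 2606 to 2994; skeletal muscle 102 to 162, against 3.82 to 4.22; endoderm and liver 6.53 to 67.2, against 0.682 to 1.02; primitive red cell 0, against 0.419 to 1.02) were summed the same way. The share of 50-base stretches unique to a gene was computed against GENCODE M21 transcripts, and a share under 80% is given as uncertain. The settings varied were the scaling (upper quartile or RLE factors), the tool (limma-voom from limma 3.58.1, or DESeq2 1.42.0), the filter (none, or 1 CPM in 9 libraries), the samples (the compared days alone, or each library left out) and, chosen after seeing the data, leaving out the library of each day with the most cardiomyocyte marker counts. Figures were drawn with matplotlib 3.10.9.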

Additional observations from a re-analysis of the deposited data

How the results depend on the processing

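No paired analysis was possible because the count columns carry a running number and a day but no replicate number, and samples are not paired by the order of columns. The count of members lower at D15 than at D5 was 1 (Acads) and became 0 with RLE factors, DESeq2 and the filter of 1 CPM in 9 libraries, where its adjusted p was 0.067, 0.0921 and 0.0574. It was 0 to 1 with each library left out in turn, being 0 without the D15 libraries of 6121454 or 6831683 counts or the D5 libraries of 6940609 or 7122093 counts. The count lower at D8 than at D7 was 1 (Ppard) and became 2 with only the days compared and 0 without the libraries highest in cardiomyocyte markers. It was 1 to 2 with each library left out, the higher without the D10 library of 5805681 counts. With each library left out, members higher at D6 than at D5 numbered 7 to 13 and lower 1 to 3 (1 without the D6 library of 6208403 counts). Members lower at D7 than at D6 numbered 0 to 1, with 1 without the D6 library of 6208403, the D7 library of 6417737 or the D15 library of 6129209 counts. The log2 fold change of Cpt1b for D15 over D5, -0.01, became 0.024 with RLE factors, 0.027 with DESeq2, 0.0042 with limma-voom and 0.014 with the 1 CPM filter. With each library left out it ran from -0.17 to 0.16. The causes were not tested. Of the values of single members for D15 over D5, 238 kept their direction and their side of the threshold in the settings that left no single library out, 4 lost the call (Acads in 3, Hadh without the libraries highest in cardiomyocyte markers) and the 4 of Cpt1b changed sign. The other counts of members stayed within 1.5 times of those reported. Members higher for D15 over D5 numbered 28 to 29 with each library left out, and those between stages 27 throughout. For fits with libraries left out, the share of all genes called was not computed. The median log2 fold change of the genes tested, D15 over D5, ran from 0.0043 to 0.0634 over the scalings. Depth limits Pparg, Ppara and Ppargc1a, with at most 3 counts per library at D5.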
